A study of Mus musculus with 11 samples.

Results

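The 39 genes described here are interferon-stimulated genes, the genes that a cell switches on when type I interferon binds its receptor. They were listed by symbol and matched to the deposited gene identifiers through GENCODE, and each of the 39 matched exactly 1 of the 55359 genes counted. The rule uses no measured value, although the list was drawn up with earlier results of these data known. Several sit in clusters (GRCm39): the 4 Ifit genes on chromosome 19 between 34527932 and 34632174, Oas1a, Oas2 and Oas3 on chromosome 5 between 120868398 and 121046449, Parp14, Dtx3l and Parp9 on chromosome 16 between 35653231 and 35792980, and Rsad2 and Cmpk2 on chromosome 12 between 26492745 and 26529836. They were split by known role into 8 sensors of foreign or misplaced nucleic acid, 10 genes of signaling and its feedback, and 21 effectors.

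Type I interferons bind the receptor pair Ifnar1 and Ifnar2, whose kinases Jak1 and Tyk2 activate Stat2. Stat2 and Irf9 belong to a complex that binds the interferon-stimulated response element upstream of its targets. Endothelial cells carry this receptor and keep a basal level of many of these transcripts. Oncostatin M (OSM), a cytokine of the interleukin-6 family, signals through gp130 and shares Jak1 with this pathway.

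The samples were endothelial cells sorted from the retina as CD31+ and CD45- at P17 in oxygen-induced retinopathy (OIR), a mouse model in which high oxygen and return to room air lead to vessel loss and then abnormal vessel growth. All mice were C57BL/6 and all went through OIR. At P12, the vitreous of 5 mice received 0.5 µL of OSM at 100 ng/µL (mice 1, 2, 5, 6 and 9), and that of 6 mice received 0.5 µL of PBS (mice 3, 4, 7, 8, 10 and 11). Each sample is the pooled retinas of 1 mouse. The study describes PBS as the control for contralateral eyes, and whether both eyes of a sequenced mouse had the same injection is not given in the sources used here. The mice came from 3 litters, each its own OIR run: litters 1 and 2 with 2 OSM and 2 PBS mice each, litter 3 with 1 OSM and 2 PBS mice. There was no uninjected group and no group outside the model, and only this time point was sampled. The comparison asks how the cells' transcripts differed at P17 between the mice given OSM and those given PBS.

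The libraries held 26697990 to 56033479 counts (median 32500202), and mouse 9 was the deepest. All 12 endothelial markers had reads in every mouse and summed to 16800 to 21500 CPM (counts scaled to a common library size) in OSM mice and 16100 to 20200 CPM in PBS mice. Of 12 tested, 7 were higher in OSM, and none had an unadjusted p under 0.05. Transcripts of other cells were also present. The sum of 16 leukocyte markers was 0.402 to 22.3 CPM in OSM mice and 0.66 to 88.9 CPM in PBS mice, and Ptprc, which encodes CD45, was at most 0.835 CPM. The sum of 10 rod markers was 216 to 5810 CPM in OSM mice and 408 to 1570 CPM in PBS mice, with the highest value in OSM mouse 5. In such bulk samples, fewer cells of a type and less RNA per cell cannot be told apart.

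The element bound by the interferon complex can be searched for directly. In the 250 bases upstream of each annotated start site (GRCm39, GENCODE vM39 canonical transcript), TTTCNNTTTC on either strand, that is also GAAANNGAAA, occurred in 15 of the 39 members (38.5%) and in 536 of 16961 tested genes with a window (3.16%). By role, 4 of 8 sensors, 3 of 10 signaling genes and 8 of 21 effectors held it. The stretches below are shown because they belong to members whose values are given in full further on, together with Ifit3b for its likeness to Ifit3. They run in the direction of transcription, capitals mark each match that lies wholly inside the stretch, and overlapping matches merge into 1 run of capitals.
Isg15, chr4:156285312-156285361, minus strand: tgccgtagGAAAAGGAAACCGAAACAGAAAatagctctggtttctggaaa
Bst2, chr8:71990211-71990260, minus strand: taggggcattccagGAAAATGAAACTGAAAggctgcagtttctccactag
Ifit1, chr19:34618184-34618233, plus strand: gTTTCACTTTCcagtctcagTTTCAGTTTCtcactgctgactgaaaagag
Ifit3, chr19:34560787-34560836, plus strand: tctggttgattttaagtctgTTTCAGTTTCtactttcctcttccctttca
Ifit3b, chr19:34585183-34585232, plus strand: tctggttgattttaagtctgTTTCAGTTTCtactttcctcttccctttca
Trim30a, chr7:104114408-104114456, minus strand: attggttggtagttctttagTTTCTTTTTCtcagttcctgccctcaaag
Usp18, chr6:121222786-121222835, plus strand: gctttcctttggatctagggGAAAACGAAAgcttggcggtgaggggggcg
Ddx60, chr8:62381082-62381122, plus strand: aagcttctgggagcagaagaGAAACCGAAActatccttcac
Oas2, chr5:120887960-120888009, minus strand: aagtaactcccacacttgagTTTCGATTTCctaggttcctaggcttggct
Oas3, chr5:120915770-120915819, minus strand: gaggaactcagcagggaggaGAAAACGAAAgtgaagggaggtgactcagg
Isg15 held 3 overlapping matches and Ifit1 held 2 separate ones. The stretches of Ifit3 and Ifit3b were the same over all 50 bases. The match nearest to the start site lay 12 bases upstream in Ddx60, 20 in Trim30a, 29 in Isg15, 42 in Usp18, 58 in Ifit1, 83 in Ifit3, 116 in Ifit3b and 117 in Bst2. The shorter element TTCNNNGAA, which reads the same on both strands and is known from binding of Stat dimers, occurred in 6 members (15.4%) and in 1099 of the 16961 windows (6.48%). A match describes the letters of a window, and nothing about binding follows from a window without one, such as those of Irf7 and Mx2.

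Most of the members were transcribed in every mouse. Reads were counted for 34 of 39 members in all 11 mice, and for 35 to 37 members in any single mouse. Per length, over the 11 mice, the highest level was that of Bst2, which encodes tetherin, a membrane protein that holds budding virus at the cell surface, at 143 ± 44.5 RPKM (mean ± SD, CPM per kilobase of exon). Isg15, the ubiquitin-like protein that is joined to other proteins, followed at 82.8 ± 43.0 RPKM, and Samd9l, a restriction factor of poxviruses, at 29.5 ± 9.77 RPKM. The spreads of Bst2 and Isg15 overlap, and so do those of Samd9l and the next member, Ifi27. The next members, Ifi27 at 20.5 ± 3.30, Rtp4 at 19.6 ± 6.53 and Irf9 at 17.9 ± 5.13 RPKM, differed by less than their spread between mice.

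The transcripts of 3 members were nearly or wholly without reads. Oas2 and Oas3, synthetases of the oligoadenylate that activates RNase L, had 0 reads in each of the 11 mice. Over the 375048894 reads of all mice, 0 reads allow a level of up to 0.008 CPM (3 counts, counting error of the reads only). The cDNA was PCR-amplified, so the limit for the RNA itself can be higher. Mx1, a dynamin-like GTPase active against influenza virus, had 8 reads in PBS mouse 3 (0.304 CPM) and 0 in the other mice. Common laboratory strains, C57BL/6 among them, are known to carry a defective Mx1. These 3 genes did not pass the filter on low counts, so 36 members were tested. Of the rest, Zbp1, a sensor of Z-form nucleic acid, had 0 reads in OSM mice 1 and 5, and Oas1a had 0 reads in PBS mouse 8.

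Between OSM and PBS, with litter as a term, no member passed the adjusted threshold of 0.05 in edgeR's quasi-likelihood test, as was so for all genes (0 of 17050, 0%). Adjusted p-values of members ran from 0.955 to 1. At an unadjusted p under 0.05 there were 16 members of 36, all 16 higher in OSM, where the same holds for 384 of all 17050 genes (2.25% higher in OSM, 4.96% in either direction). Counting direction alone, 31 of 36 members were higher in OSM, against 48.4% of all genes. The median log2 fold change was 0.59 over the members and -0.01 over all genes tested. By role, the median was 0.71 for the 6 sensors tested, 0.43 for the 10 signaling genes and 0.59 for the 20 effectors tested.

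The count of 16 rests on few mice. It was 4 without OSM mouse 9, 10 without OSM mouse 6 and 9 without PBS mouse 8. It was 4 without litter 2, 7 without litter 3 and 9 without the litter term. Mouse 9 was the only OSM mouse of litter 3, so without it the PBS mice of that litter do not inform the fold change. Leaving out mouse 9 and leaving out litter 3 are thus not separate checks. The number of members higher in OSM stayed between 31 and 35, and the median between 0.40 and 0.72, when each mouse was left out in turn.

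**Figure D1:**
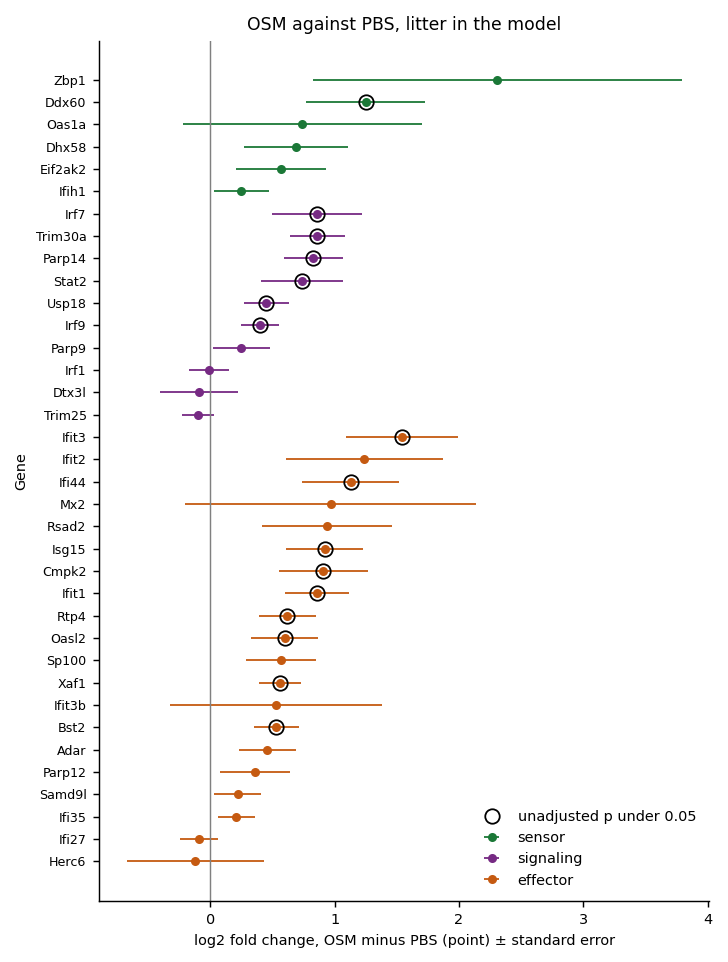
The log2 fold change, OSM minus PBS, of the 36 members tested is shown on the horizontal axis with its standard error, 1 gene per line, colored by role, and open circles mark an unadjusted p under 0.05. Of the 36 points, 31 lie right of 0, and the 5 at or left of it are Irf1, Dtx3l, Trim25, Ifi27 and Herc6.

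Other tests called single members. DESeq2 with litter called 1 member, Trim30a (adjusted p = 0.00387), where it called 168 of 22014 genes with an adjusted p (0.763%). edgeR without the filter on low counts called 3 members, Isg15 (adjusted p = 0.00164), Ifi44 (adjusted p = 0.00291) and Irf7 (adjusted p = 0.0137), where it called 65 of 28940 genes (0.225%). Trim30a was not among these 3. Ifi44 and Irf7 are outside the rule for genes given in full and are named after their values were seen.

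Among the sensors, all 6 tested were higher in OSM, and 1, Ddx60, had an unadjusted p under 0.05. Within litters 1, 2 and 3, the sensors higher in OSM numbered 3, 5 and 6, and 3 were higher in every litter. Ddx60 is a helicase that assists RIG-I-like receptors. It measured 15.6, 16.9, 17.6, 25.6 and 27.2 CPM in OSM mice 1, 2, 5, 6 and 9, and 3.08, 8.98 and 22.8 CPM at the lowest, median and highest PBS mouse. All OSM mice were above the PBS median, and mice 6 and 9 were above every PBS mouse. The log2 fold change was 1.25 ± 0.48 (SE, unadjusted p = 0.0256, adjusted p = 0.955).

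Dhx58, which encodes the RIG-I-like receptor LGP2, measured 17, 29.1, 6.50, 28.9 and 32.5 CPM in the same OSM mice, against 5.77, 14.7 and 21.8 CPM at the lowest, median and highest PBS mouse. Mice 2, 6 and 9 were above every PBS mouse and mouse 5 was near the lowest of them. The log2 fold change was 0.69 ± 0.42 (unadjusted p = 0.129). Eif2ak2, the kinase PKR, which is activated by double-stranded RNA and halts translation, measured 22.2, 21.2, 24, 43.0 and 53.5 CPM in OSM mice and 10.7, 21.6 and 39.4 CPM at the lowest, median and highest PBS mouse. Its groups overlapped except for mice 6 and 9, with a log2 fold change of 0.57 ± 0.36 (unadjusted p = 0.141).

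The other 3 sensors were Zbp1, Oas1a and Ifih1. Zbp1 was at 8.44, 19.5 and 13.7 CPM in OSM mice 2, 6 and 9 and at 0 in mice 1 and 5, against at most 2.27 CPM in PBS mice (log2 fold change 2.31 ± 1.48, unadjusted p = 0.149). Its differences of mean log2 CPM, OSM minus PBS, within litters 1, 2 and 3 were -1.59, -0.38 and 3.40. Ifih1, which encodes MDA5, a receptor of long double-stranded RNA, had a log2 fold change of 0.25 ± 0.22. For Oas1a it was 0.74 ± 0.96. Of the Oas1a transcript, 56.8% of the 50-base stretches also occur in Oas1g or Oas1b, so its counts are uncertain.

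Of the 10 signaling genes, 7 were higher in OSM and 6 had an unadjusted p under 0.05. Trim30a, an interferon-induced member of the TRIM family that restrains inflammatory signaling, was the single member whose groups did not overlap, which held for 31 of all 17050 genes in this direction (0.182%). It measured 36.6, 37.4, 45.5, 32.7 and 23.4 CPM in OSM mice 1, 2, 5, 6 and 9, and 15.4, 19.2 and 22.1 CPM at the lowest, median and highest PBS mouse. Mouse 9, the highest in many other members, was the lowest OSM mouse here, and mouse 5 the highest. The log2 fold change was 0.86 ± 0.22 (unadjusted p = 0.00219, adjusted p = 0.955), and 0.74 to 1.07 when each mouse was left out.

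Parp14, an ADP-ribosyltransferase, measured 53.2, 41.0, 23.5, 49.5 and 68.5 CPM in OSM mice and 15.1, 28.3 and 41.6 CPM at the lowest, median and highest PBS mouse. Mice 1, 6 and 9 were above every PBS mouse, and the log2 fold change was 0.83 ± 0.24 (unadjusted p = 0.00565). Its chromosomal neighbors Parp9 and Dtx3l, whose products work as a pair and whose start sites lie 681 bases apart on opposite strands, had 0.25 ± 0.23 and -0.09 ± 0.31. Parp9 and Dtx3l overlap in part of their exons (9.12% and 8.00% of bases).

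Irf9, the DNA-binding part of the interferon complex, measured 112, 138, 94.4, 91.4 and 151 CPM in OSM mice and 54.4, 92.7 and 141 CPM at the lowest, median and highest PBS mouse. Only mouse 9 was above every PBS mouse, and the log2 fold change was 0.40 ± 0.15 (unadjusted p = 0.0214). Usp18, which removes Isg15 from proteins and dampens the receptor, measured 68.3, 62.8, 43.5, 45.8 and 75.7 CPM in OSM mice and 19.2, 52.0 and 64.5 CPM at the lowest, median and highest PBS mouse. Mice 1 and 9 were above every PBS mouse, while mice 5 and 6 were below the PBS median (log2 fold change 0.45 ± 0.18, unadjusted p = 0.0287). Both Irf9 and Usp18 were low in litter 2 under either treatment.

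Irf7, the factor that amplifies interferon transcription, had a log2 fold change of 0.86 ± 0.36 (unadjusted p = 0.0367), with 2 OSM mice above every PBS mouse. Stat2 had 0.74 ± 0.33 (unadjusted p = 0.0448), with 3 such mice. Irf1, a factor shared with interferon gamma signaling, had -0.01 ± 0.16, and 46.0% of its exon bases overlap other genes. Trim25, the ubiquitin ligase of RIG-I, had -0.10 ± 0.13 (unadjusted p = 0.460).

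**Figure D2:**
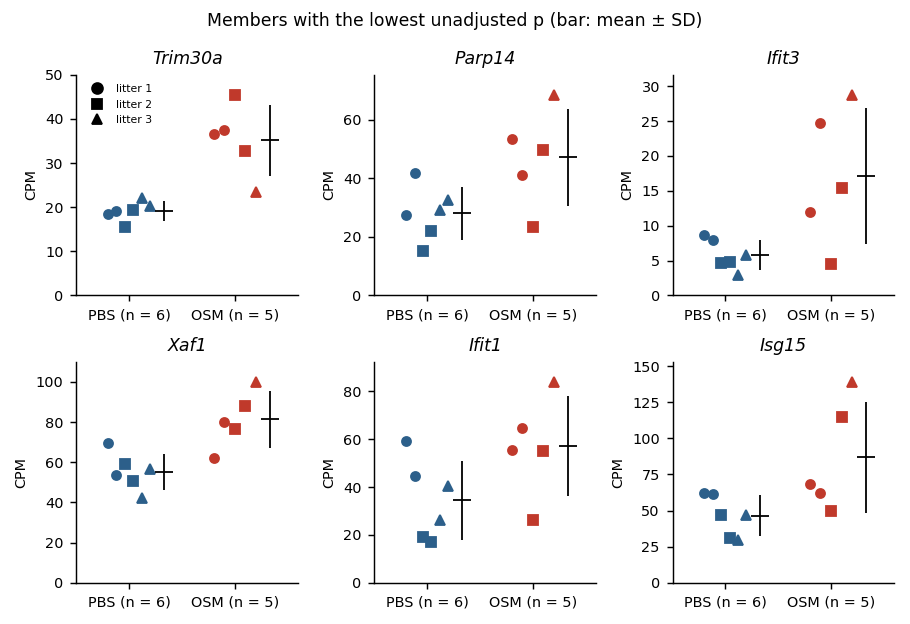
CPM per mouse (vertical axis) in PBS and OSM mice for the 6 members with the lowest unadjusted p, with symbols for the 3 litters and the mean ± SD beside each group. Trim30a is the gene whose groups do not overlap, and in Ifit3 and Isg15 OSM mouse 5 (4.52 and 49.6 CPM) lies within the range of the PBS mice. In Isg15, OSM mouse 2 (61.9 CPM) lies within that range too.

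Of the 20 effectors tested, 18 were higher in OSM and 9 had an unadjusted p under 0.05. Ifit3, a protein that acts with Ifit1 on viral RNA, measured 12, 24.8, 4.52, 15.4 and 28.8 CPM in OSM mice 1, 2, 5, 6 and 9 and 2.93, 5.31 and 8.73 CPM at the lowest, median and highest PBS mouse. The OSM mice other than mouse 5 were above every PBS mouse. The log2 fold change was 1.54 ± 0.45 (unadjusted p = 0.00572, adjusted p = 0.955), the highest among effectors. Ifit3 shares 46.9% of its 50-base stretches with other genes, mainly Ifit3b, whose log2 fold change was 0.53 ± 0.85, so the split between both is uncertain.

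Ifit1, which binds viral RNA that lacks host cap methylation, measured 55.4, 64.8, 26.1, 55.1 and 84.0 CPM in OSM mice and 17.2, 33.2 and 59.3 CPM at the lowest, median and highest PBS mouse. Mice 2 and 9 were above every PBS mouse, and the log2 fold change was 0.86 ± 0.26 (unadjusted p = 0.00705). Xaf1, a proapoptotic antagonist of XIAP, measured 61.9, 80.2, 76.6, 88.1 and 100 CPM in OSM mice and 42.0, 55.1 and 69.4 CPM at the lowest, median and highest PBS mouse. Only mouse 1 fell within the PBS range, and the log2 fold change was 0.56 ± 0.17 (unadjusted p = 0.00641).

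Isg15 measured 68.4, 61.9, 49.6, 115 and 139 CPM in OSM mice and 29.6, 47.0 and 62.1 CPM at the lowest, median and highest PBS mouse. Mice 6 and 9 were far above the rest, mouse 1 was above every PBS mouse by a little, and the log2 fold change was 0.92 ± 0.31 (unadjusted p = 0.0123). Without 1 mouse at a time it ran from 0.57 to 1.08. Of its exon bases, 31.1% overlap Gm46878, and under the standard settings of featureCounts a read over both genes is not counted. Bst2 measured 158, 168, 167, 286 and 269 CPM in OSM mice and 127, 137 and 183 CPM at the lowest, median and highest PBS mouse. Again mice 6 and 9 alone were above every PBS mouse, and the log2 fold change was 0.53 ± 0.18 (unadjusted p = 0.0148).

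Ifi44 had a log2 fold change of 1.13 ± 0.39 (unadjusted p = 0.0141), with 113 CPM in mouse 6 and 72.7 CPM in mouse 9 against at most 47.7 CPM in PBS mice. The neighbors Rsad2, which encodes the antiviral enzyme viperin, and Cmpk2, a mitochondrial nucleotide kinase, had 0.94 ± 0.52 (unadjusted p = 0.0994) and 0.91 ± 0.36 (unadjusted p = 0.0266). Rtp4 had 0.62 ± 0.23 (unadjusted p = 0.0194), with 29.1% of its exon bases overlapped by other genes, and Oasl2 had 0.60 ± 0.27 (unadjusted p = 0.0456).

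Effectors that did not reach an unadjusted p of 0.05 ranged widely in size. Ifit2 had 1.24 ± 0.63 and Mx2 had 0.97 ± 1.17. Sp100, of nuclear bodies, had 0.57 ± 0.28, and the RNA editing enzyme Adar had 0.46 ± 0.23. Smaller values were those of Parp12 (0.36 ± 0.28), Samd9l (0.22 ± 0.19) and Ifi35 (0.21 ± 0.15). The 2 effectors that were lower were Ifi27 (-0.09 ± 0.15) and Herc6, the main ligase for Isg15 in mice (-0.12 ± 0.55).

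By the upstream element, the 13 tested members that held a match had a median log2 fold change of 0.86, 12 of them higher in OSM and 9 with an unadjusted p under 0.05. The 23 without a match had a median of 0.56, with 19 higher and 7 at that level. This split is a description and was not tested. Trim30a, Isg15, Ifit1, Ifit3, Bst2, Usp18 and Ddx60, whose stretches are printed above, fall in the former. Ifi27 fell in it too, at -0.09.

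Within litters the members were compared without a test. In litter 1 the difference of mean log2 CPM, OSM minus PBS, had a median of 0.17 over the 36 members, with 28 higher. In litter 2 it was 0.82 with 32 higher, and in litter 3 it was 0.73 with 31 higher. Over all genes tested the medians were 0.01, -0.01 and 0.00. In all 3 litters 24 members of 36 were higher, against 11.3% of all genes, and 0 members were lower in all 3, against 2006 of the 17050 genes.

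**Figure D3:**
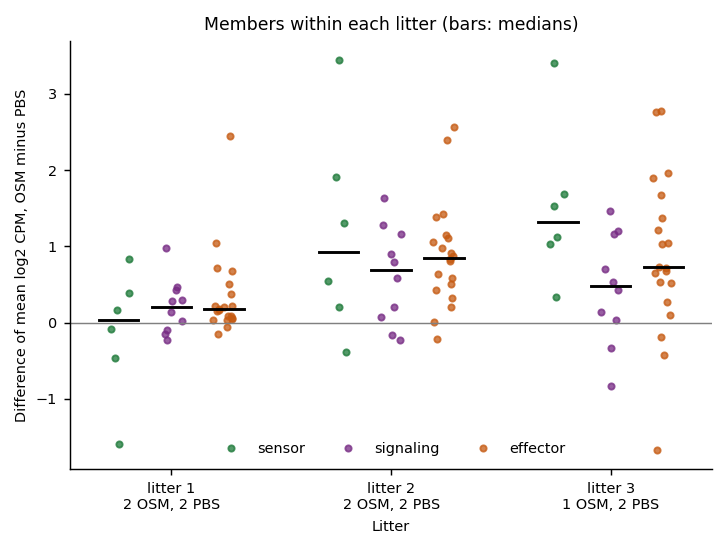
Each point is 1 of the 36 members, placed by its difference of mean log2 CPM between OSM and PBS mice of the same litter (vertical axis), colored by role, with bars at the medians. Points gather close above 0 in litter 1 and spread higher in litters 2 and 3, where the medians of all members are 0.82 and 0.73.

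Values of single members follow. For Irf7 the differences in litters 1, 2 and 3 were -0.15, 1.63 and 1.46, and for Stat2 they were -0.23, 1.28 and 1.20. For Isg15 they were 0.08, 0.98 and 1.89. Bst2 had 0.03, 0.64 and 1.03. Trim30a had another order, 0.98, 1.16 and 0.14. The test of a difference in the OSM effect between litters called 0 members (lowest adjusted p = 0.745 in edgeR) and 0 of all 17050 genes (0%). It had 2 members at an unadjusted p under 0.05, Eif2ak2 (0.0349) and Isg15 (0.0473), where 6.42% of all genes reached it, and litter 3 had a single OSM mouse.

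The level of the members was also compared between litters. The litter terms had an unadjusted p under 0.05 for 7 of 36 members, against 10.3% of all genes, and an adjusted p under 0.05 for none of the members, against 3 of the 17050 genes (0.0176%). The 7 were Usp18 (0.00367), Irf9 (0.00485), Samd9l (0.00765), Ifit1 (0.0138), Adar (0.0270), Oasl2 (0.0330) and Irf1 (0.0474).

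For a view by mouse, each member's log2 CPM was set relative to its mean over the 11 mice and averaged over the 36 members. The PBS mice averaged 0.14 in litter 1, -0.77 in litter 2 and -0.19 in litter 3, and the OSM mice 0.38, 0.10 and 0.68. In OSM mice 1, 2, 5, 6 and 9 the level was 0.22, 0.53, -0.50, 0.69 and 0.68. In PBS mice 3, 4, 7, 8, 10 and 11 it was 0.22, 0.07, -0.52, -1.02, -0.26 and -0.12. Mice 2, 6 and 9 stood above every PBS mouse, mouse 1 stood level with PBS mouse 3, and mouse 5 was lower than 4 of the 6 PBS mice.

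The same mice recurred gene by gene. Mouse 9 was the highest of the 11 mice in 17 of the 36 members, and PBS mouse 8 the lowest in 12. Mouse 6 was above the member's mean in 33 of the 36 and mouse 5 in 6. By role, the sensors spread most, from -2.08 in mouse 8 to 1.44 in mouse 9. Their mean covers 6 genes, of which Oas1a had 0 reads in mouse 8 and Zbp1 had 0 reads in mice 1 and 5. In mouse 8, Oas1a was at a log2 CPM of -4.09, against 2.42 in the nearest PBS mouse. The signaling genes ran from -0.71 to 0.35, and the effectors from -0.85 in mouse 8 to 0.72 in mouse 6.

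**Figure D4:**
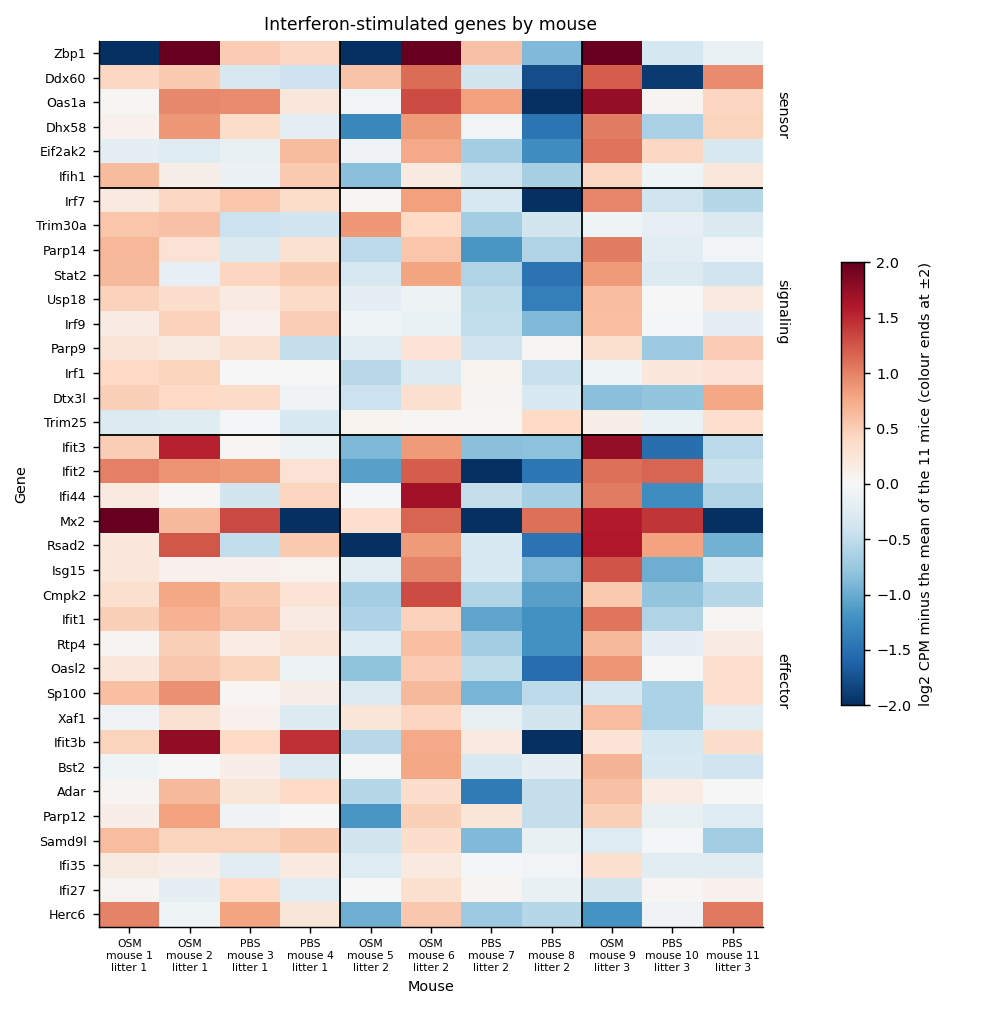
Log2 CPM of the 36 members (rows, by role) in the 11 mice (columns, by litter and treatment), relative to each gene's mean, with red above and blue below it. The columns of OSM mice 1, 2, 6 and 9 are mostly red (29 to 33 of the 36 members above their mean). Those of PBS mice 3 and 4 of litter 1 are also more red than blue (25 and 23 above). The columns of OSM mouse 5 and PBS mice 7, 8 and 10 are mostly blue (3 to 8 above), and PBS mouse 11 has 17 above.

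Markers of other cell types were read beside the members, and edgeR called none of them between OSM and PBS. All 5 erythroid markers tested (hemoglobins and Alas2) were higher in OSM, each with an unadjusted p under 0.05, with a median log2 fold change of 1.12. Their list of 6 summed to 361 to 1130 CPM in OSM mice and 117 to 596 CPM in PBS mice. The highest sum (1130 CPM) was in OSM mouse 6, whose member level of 0.69 was the highest, and the lowest (117 CPM) in PBS mouse 10, with a member level of -0.26. OSM mouse 5 had 887 CPM and a member level of -0.50. PBS mouse 8, with the lowest member level (-1.02), had the highest erythroid sum of the PBS mice (596 CPM). All 10 mural markers were lower in OSM, 1 with an unadjusted p under 0.05 (median -0.68), at 603 to 1110 CPM in OSM mice and 408 to 2200 CPM in PBS mice. In litter 2, however, 7 of the 10 were higher in OSM (median difference 0.28). Of 8 leukocyte markers tested, 1 was higher in OSM, and within litters 1, 2 and 3 those higher numbered 0, 7 and 1. The leukocyte sum was highest in PBS mice 3 and 4 of litter 1 (32.3 and 88.9 CPM), where Lyz2 gave 16.6 and 67.0 CPM. In OSM mice 2, 6 and 9, in which the members were highest, it was 0.435, 1.99 and 1.34 CPM. Of 10 rod markers tested, 8 were higher in OSM, and within litters 1, 2 and 3 those higher numbered 5, 10 and 0. The rod sum was 5810 CPM in mouse 5 and 216 CPM in mouse 9, and no rod or leukocyte marker had an unadjusted p under 0.05. The part of these cells in the members' values was not tested.

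**Figure D5:**
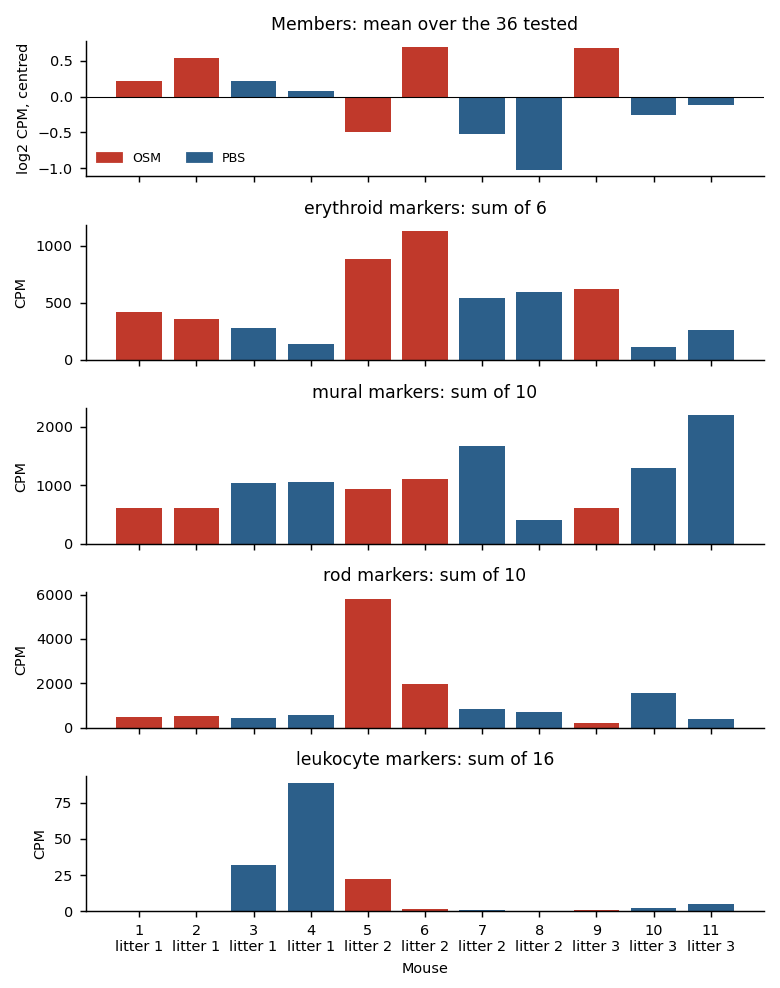
For each mouse (horizontal axis, with its litter), the top panel gives the mean of the 36 members' log2 CPM relative to their means, and the panels under it the summed CPM of erythroid, mural, rod and leukocyte markers. Mouse 5, an OSM mouse with a member level of -0.50, has the highest rod sum (5810 CPM), and the highest leukocyte sum (88.9 CPM) is in PBS mouse 4.

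The rest of the pathway was read from a list of 83 further genes, of which 68 were tested. None was called by edgeR, and 13 had an unadjusted p under 0.05, 10 of them higher and 3 lower in OSM. Of all genes, 4.96% reached that level in either direction, and 2.25% did so higher in OSM. The median log2 fold change of the 68 was 0.17. Of the 10 ligand genes, 9 had 0 reads in every mouse, among them Ifnb1, Ifng and 4 interferon alpha genes. Ifnk had 6 reads, all in OSM mouse 2 (0.174 CPM). Interferon genes of this list were thus at or near the limit of detection in these sorted cells at P17, which says nothing of other retinal cells or earlier times.

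The receptors were well covered. Ifnar1 averaged 322 ± 74.2 CPM and Ifnar2 198 ± 24 CPM over the 11 mice, with log2 fold changes of 0.00 ± 0.15 and 0.09 ± 0.09. The subunits for interferon gamma, Ifngr1 and Ifngr2, had 0.28 ± 0.17 and -0.04 ± 0.09, and Il10rb had 0.05 ± 0.20. Ifnlr1, the receptor subunit specific to interferon lambda, had 1 read in all. No receptor had an unadjusted p under 0.05.

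Of the 8 kinases and factors, 3 were higher and 5 lower. Jak1 had a log2 fold change of 0.08 ± 0.18. Tyk2 had -0.97 ± 0.34 (unadjusted p = 0.0157), at 7.97 to 47.8 CPM in OSM mice and 31.8 to 71.3 CPM in PBS mice. Among 10 genes of upstream sensing tested, 3 were higher and 7 lower, and the kinase Tbk1 had -0.41 ± 0.18 (unadjusted p = 0.0466). Of 3 negative regulators, 1 had an unadjusted p under 0.05, Ptpn6, with reads in 3 PBS mice and in no OSM mouse (unadjusted p = 0.0112). It was at 6.07 and 9.61 CPM in PBS mice 3 and 4, both of litter 1, and at 0.0314 CPM in PBS mouse 11. Mice 3 and 4 also had the highest leukocyte marker sums (32.3 and 88.9 CPM), and a link to Ptpn6 was not tested.

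The chemokines Cxcl9 and Cxcl10, which draw T cells and are targets of both interferon types, were seen in few mice. Cxcl9 had reads in 2 mice, both given OSM, at up to 8.21 CPM (unadjusted p = 0.0425). Cxcl10 had reads in 6 mice, at up to 21.4 CPM in OSM mice and up to 3.17 CPM in PBS mice (unadjusted p = 0.159). With so many libraries at 0, no fold is given.

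A further list of 40 interferon-stimulated genes outside the 39 was read in the same way. Of 38 tested, 34 were higher in OSM and 8 had an unadjusted p under 0.05, all higher, with a median log2 fold change of 0.33. Isg20, an exonuclease, had 1.11 ± 0.30 (unadjusted p = 0.00359), at 18.7 to 32.7 CPM in OSM mice and 7.81 to 19.9 CPM in PBS mice, and DESeq2 called it (adjusted p = 0.0290). Ly6e had 0.27 ± 0.06 (unadjusted p = 0.00154) and was called by DESeq2 too (adjusted p = 0.00805). Its OSM mice were at 1770 to 2280 CPM and its PBS mice at 1340 to 1920 CPM. DESeq2 with litter called 0.763% of all genes with an adjusted p. Ifitm3, a membrane protein that blocks viral entry, had 0.41 ± 0.12 (unadjusted p = 0.00475). Phf11d had 0.69 ± 0.30, Slfn5 0.34 ± 0.15 and Lgals9 0.26 ± 0.11. Cd274 and Ifit1bl1 reached an unadjusted p under 0.05 with reads in 5 and 4 mice.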

How the data were processed

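RNA of sorted retinal endothelial cells from 11 mice was measured by sequencing. Per the study methods, cDNA was primed at the poly(A) tail and PCR-amplified. The authors mapped the single reads with STAR (build GRCm39) and used featureCounts with the GENCODE annotation. The deposited values are raw counts per gene, without normalization or molecular identifiers. The value columns for mice 10 and 11 carry the numbers of other mice in their headers, with the same treatment, and were assigned by sample record.

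In R 4.3.3, edgeR 4.0.16 was used with TMM normalization, filterByExpr (count minimum 10), litter and treatment as terms, robust quasi-likelihood F tests and Benjamini-Hochberg adjustment over 17050 genes at a threshold of 0.05. Standard errors came from the fold change and the F statistic. CPM used TMM library sizes, log2 CPM a prior count of 2, and RPKM the union of GENCODE vM39 exons. Exon overlaps and shared stretches were also read from GENCODE vM39, which may differ from the annotation behind the deposited counts. DESeq2 1.42.0 (Wald test) was an alternative. Others were no litter term, other size factors, filters and priors, thinning, and leaving out each mouse or litter. The edgeR step was tested on simulated data with known changes. The 26697990 to 56033479 counts per mouse are of amplified reads without molecular identifiers. Depth therefore does not bound the error from sampling the input RNA. The errors given are those between mice.

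The members and lists were chosen with earlier results of these data known. Values in full are given, per role, for the 2 members with the highest RPKM and the 3 with the lowest unadjusted p, for members whose groups do not overlap, and for those that failed the filter. Upstream sequence was read from GRCm39. Some genes of the pathway and marker lists are not reported here by name.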

Additional observations from a re-analysis of the deposited data

Results flagged for a closer look

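In 5 of 76 sets of mice examined (each member with reads, and the mean member level, within the OSM or the PBS mice), 1 mouse lay far from the others on the log2 CPM scale, by the ratio of its gap to the nearest mouse over the whole range. Chance alone gives about 1 in 20 for normally spread values. Sets with mice at 0 reads, as for Oas1a and Mx1, do not meet that condition, and each set pools the 3 litters. PBS mouse 8 was lowest in Oas1a (ratio 0.879, log2 CPM of -4.09 against 2.42 in the nearest mouse) and in Ifit3b (ratio 0.709, -3.11 against 1.31). OSM mouse 5 was lowest in Ifit2 (ratio 0.865, 2.81 against 4.81) and in Parp9 (ratio 0.759, 6.02 against 6.43). PBS mouse 3 was highest in Mx1 (ratio 1.000), being the only mouse with reads. No member's OSM effect differed between litters at an adjusted p under 0.05.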

How the results depend on the processing

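The number of members called was 0 in the reported fit, 1 with DESeq2 with litter, 1 with DESeq2 without litter (both Trim30a) and 3 without the filter on low counts (Isg15, Ifi44 and Irf7). It was 0 under every other alternative run with edgeR. The number with an unadjusted p under 0.05 was 16, and 9 with DESeq2 without litter, 9 without the litter term, 4 without litter 2, 7 without litter 3 and 4 to 18 when each mouse was left out. The last 3 settings also held fewer mice, and the count was 17 and 18 without OSM mice 1 and 5. The cause of these differences was not tested. Members higher in OSM numbered 31 to 35, and the members' median stayed between 0.40 and 0.83 under all 22 alternatives. Of 793 recomputed single-member values, 770 kept their direction and side of the threshold, 5 passed it and 18 changed sign, all of 4 members near 0. When each mouse was left out, Irf1 ran from -0.08 to 0.11, Dtx3l from -0.25 to 0.18, Ifi27 from -0.18 to 0.03 and Herc6 from -0.54 to 0.32. Without litter 2 Irf1 was 0.13, without litter 3 Irf1 was 0.09, Dtx3l 0.18, Ifi27 0.02 and Herc6 0.32, and without the litter term Irf1 was 0.00. With a prior count of 0.5, 24 members were higher in all 3 litters, as with 2. Ranking by the longest transcript kept 8 of the 10 highest members by RPKM among the first 10. By that length Ifi27 (36.2 RPKM) and Oasl2 (32.3 RPKM) were above Samd9l (31.9 RPKM). The groups share no replicate numbers, and the matching by litter that the labels give is a term of the reported fit.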
